A study of Mus musculus with 6 samples.

Results

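The stanniocalcin genes Stc1 (ENSMUSG00000014813) and Stc2 (ENSMUSG00000020303) were taken by their symbols from a table of 22298 mouse genes. These 2 genes are the whole family in the mouse. The pair was chosen by the large difference of Stc1 between the groups in these counts, so the counts and levels that follow describe both genes and carry no test. The table holds RNA sequencing counts of liver sinusoidal endothelial cells, the thin and porous endothelium of the capillaries between plates of hepatocytes. It also holds FPKM values, which put counts on a scale per gene length and per library size. All 6 libraries came from wild-type mice, and 3 are labelled control (replicates 1, 2 and 3) and 3 are labelled aging (replicates 2, 3 and 5). The study set mice of 24 months against mice of 8 weeks, but the age field gives 24 months for the libraries labelled control and 8 weeks for those titled aging, against what the titles say. The age of each group is therefore unsettled, and every direction here is that of the label aging relative to the label control. No source used here gives the sex, the strain, the way the cells were isolated or whether a library stands for 1 mouse. The p-values therefore measure only the spread between these libraries, which may be technical.

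Stanniocalcins are secreted glycoprotein hormones, first known from fish, where they lower calcium uptake. In mammals both act mostly close to the cells that make them. Both proteins inhibit PAPP-A, the protease that frees insulin-like growth factors from their binding proteins, and Stc2 is known as a brake on store-operated calcium entry through the sensor Stim1. In human endothelial cells Stc1 is induced by VEGF, and in cultured mammalian cells hypoxia raises both genes and the ATF4 arm of the unfolded protein response raises Stc2.

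Library totals ranged from 15999220 to 17871220 counts. Of the 22298 genes, 13096 had enough counts to be tested. Stc1 passed this filter and Stc2 did not. In edgeR's quasi-likelihood test with Benjamini-Hochberg adjustment 1678 genes changed, 12.8% of those tested, of which 946 (7.22%) were higher and 732 (5.59%) lower with the label aging. Without control replicate 1, 2 or 3 or aging replicate 3 the number changed was 664, 268, 458 and 860. With upper-quartile scaling in place of TMM the split was 823 higher and 969 lower. Markers of sinusoidal endothelium, such as Stab2, Lyve1 and Clec4g, were detected in all 6 libraries. They summed to 20042 to 25195 CPM in the control libraries and 20650 to 23770 CPM in the aging libraries. CPM are counts put on a scale of equal library size. The sum hides single markers, as Lyve1 stood at 614 ± 57.2 against 258 ± 198 CPM (SD, n = 3 per group; edgeR adjusted p = 0.207). The groups did not overlap for 4 of the 8 markers, against 38% of all tested genes. Lyve1 and Oit3 were lower and Clec4g and Gpr182 higher with the label aging, and none passed.

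Stc1 was present in every control library and rested on few counts in every aging library. It had 190, 196 and 256 counts in control replicates 1, 2 and 3, and 1, 13 and 18 counts in aging replicates 2, 3 and 5. On the CPM scale this was 11.3, 11.0 and 16.1 in the control libraries and 0.0575, 0.768 and 1.05 in the aging libraries. The groups did not overlap, and the lowest control level was 10.5 times the highest aging level. Non-overlap in either direction held for 38% of the tested genes and in the downward direction for 18.8%, and since this contrast chose Stc1, nothing is read from it. The mean was 12.8 ± 2.86 CPM in the control libraries against 0.624 ± 0.510 CPM in the aging libraries (SD over 3 libraries each), and the fit gave a log2 fold change of -4.35 ± 0.56 (SE). Only 1 of the 13096 tested genes, Hmga2, had a lower one.

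The spread of Stc1 was unequal between the groups. Among the control libraries the highest CPM was 1.46 times the lowest, and among the aging libraries it was 18.2 times the lowest. The single count of aging replicate 2 has an exact 95% Poisson interval of 0.00146 to 0.321 CPM. That of aging replicate 3 runs from 0.409 to 1.31 CPM and that of aging replicate 5 from 0.620 to 1.65 CPM. The interval of aging replicate 2 thus lies below those of replicates 3 and 5, which overlap each other. In the control group, replicate 3 lay above the rest: its interval of 14.2 to 18.2 CPM did not overlap those of replicate 1 (9.77 to 13.1 CPM) and replicate 2 (9.53 to 12.7 CPM). These intervals cover counting error only.

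**Figure D1:**
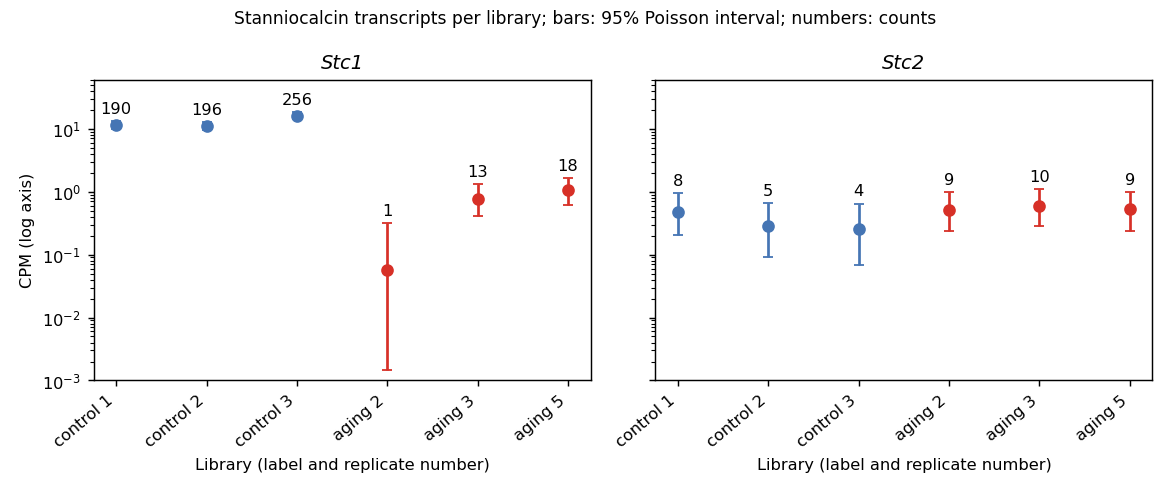
CPM of Stc1 (left) and Stc2 (right) in each library on a log axis, with control libraries in blue and aging libraries in red; bars are exact 95% Poisson intervals and the numbers are raw counts. Stc1 stood at 190 to 256 counts in the control libraries and 1 to 18 in the aging libraries, whereas the 6 intervals of Stc2 overlap one another.

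Summed over the groups, Stc1 had 642 counts in the control libraries and 32 in the aging libraries. Scaled to library size the control level was 20.5 times the aging level, and counting error alone gives an exact 95% interval of 14.4 to 30.2 times. Leaving out aging replicate 5 took the ratio to 31.2 and the fitted log2 fold change to -4.94. Without aging replicate 2, the library with 1 count, the ratio was 14.0 and the log2 fold change -3.81 ± 0.30 (SE). The authors' deposited table gives group values of 2.878 and 0.19 and a log2 fold change of -3.92 for Stc1. These group values are not the plain means of the FPKM columns, which are 3.09 ± 0.635 FPKM for control and 0.143 ± 0.119 FPKM for aging (SD, n = 3 per group).

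Set against the other genes of each library on the FPKM scale, Stc1 was a modestly expressed gene in the control libraries and a rare one in the aging libraries. Its level was 2.83, 2.62 and 3.81 FPKM in control replicates 1, 2 and 3, higher than 36.7%, 36.7% and 41.8% of the genes with a value above 0 there. In aging replicates 3 and 5 it was 0.18 and 0.24 FPKM, higher than 12.9% and 15.9% of such genes. In aging replicate 2 it was 0.01 FPKM, the smallest value that the rounding of the table allows.

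Stc2 was near the detection limit in all 6 libraries. It had 8, 5 and 4 counts in control replicates 1, 2 and 3, and 9, 10 and 9 counts in aging replicates 2, 3 and 5. The levels were 0.477, 0.281 and 0.252 CPM in the control libraries and 0.518, 0.591 and 0.523 CPM in the aging libraries. The groups did not overlap as point values, but the Poisson intervals of all 6 libraries overlapped, from 0.206 to 0.939 CPM in control replicate 1, the highest of its group, and from 0.237 to 0.983 CPM in aging replicate 2, the lowest of its group. With 17 counts over the control libraries and 28 over the aging libraries the aging level was 1.61 times the control level, and the exact 95% counting interval, 0.853 to 3.14, includes 1. A fit without the low-count filter gave a log2 fold change of 0.68 ± 0.55 (SE), a difference not detectable at this depth. The authors' deposited table gives a log2 fold change of 0.0260 for Stc2, with group values of 0.11 and 0.112, whereas the plain FPKM means were 0.0867 ± 0.0379 for control and 0.137 ± 0.0115 for aging (SD, n = 3 per group).

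The promoter of Stc2 is shown because the gene is known as a hypoxia and ATF4 target, the responses whose genes are described further on. The 250 bases before its start, from RefSeq on GRCm38.p6, minus strand, chr11:31370062-31370311, read 5′ to 3′ as follows, with matches to the core of the hypoxia response element in capitals.
Stc2: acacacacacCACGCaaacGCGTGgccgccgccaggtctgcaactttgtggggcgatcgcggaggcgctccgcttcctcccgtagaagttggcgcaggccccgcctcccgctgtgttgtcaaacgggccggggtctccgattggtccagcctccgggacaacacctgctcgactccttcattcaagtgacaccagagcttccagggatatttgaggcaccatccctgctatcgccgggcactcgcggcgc
The core was searched as ACGTG and GCGTG on both strands. GCGTG had 2 matches that do not overlap, beginning 240 and 231 bases before the start, one on each strand, and ACGTG had 0. The ATF4 composite element, searched as TGATGNAA on both strands, had 0 matches in this window. Among 32851 promoter windows of the same length 28.2% held GCGTG, 16.6% held ACGTG and 3.45% held TGATGNAA, so a match to the core is common. A match is a description of letters and not of a bound site.

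Per length, Stc1 stood far above Stc2 in the control libraries only. The FPKM of Stc1 was 21.8, 37.4 and 63.5 times that of Stc2 in control replicates 1, 2 and 3. In aging replicates 3 and 5 it was 1.20 and 1.85 times that of Stc2, and in aging replicate 2 it was 0.0769 times. By point value Stc1 was thus the higher of the pair in every library other than aging replicate 2, where it had 1 count. In the aging libraries both genes stood at 0.24 FPKM or less. In aging replicates 3 and 5 the order rests on 13 against 10 and 18 against 9 counts, and the Poisson intervals of the 2 genes in CPM overlap. Because Stc2 rests on 4 to 10 counts a library, and Stc1 on 1 to 18 in the aging libraries, these ratios are known only roughly.

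**Figure D2:**
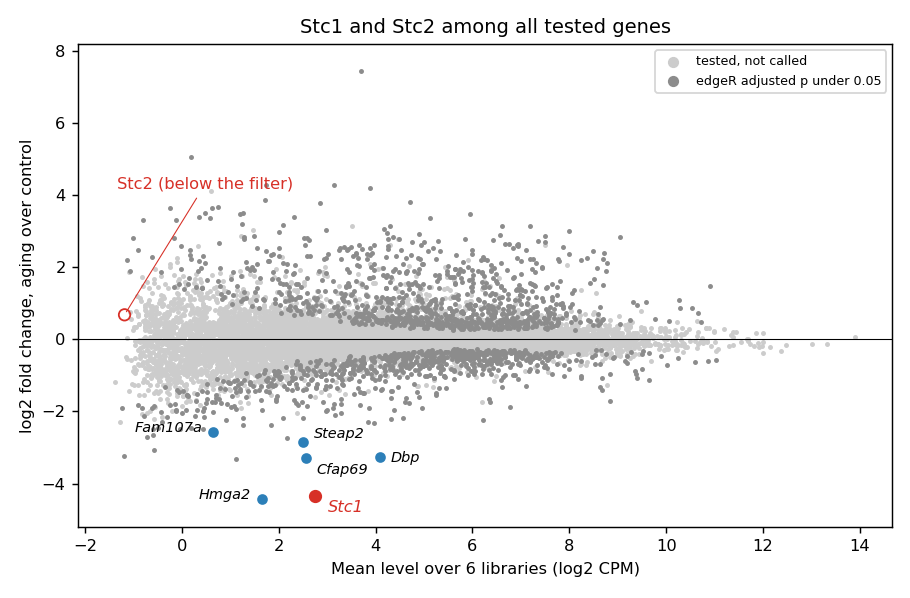
log2 fold change of aging over control against the mean level over 6 libraries (log2 CPM) for the 13096 tested genes, with called genes in dark grey, Stc1 in red, the 5 genes of nearest profile in blue, and Stc2, which was fitted without the filter, as an open circle. Stc1 lies at -4.35, with only Hmga2 lower, and Stc2 at 0.68 at the low end of the level axis.

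Among the genes compared, those whose pattern was most like that of Stc1 over the 6 libraries were Hmga2, Cfap69, Fam107a, Dbp and Steap2. Likeness was the root mean square difference of log2 CPM, with a prior count of 2, after each gene's own mean was removed. It was taken over 12206 tested genes with a mean of at least 1 CPM. Unnamed gene models and immunoglobulin and T cell receptor segments were left out. Hmga2, a chromatin protein of fetal cells, was nearest at 0.72 log2 units. Cfap69, a cilium and flagellum protein, followed at 1.01, Fam107a at 1.14, Dbp, a transcription factor of the circadian clock, at 1.17 and the metalloreductase Steap2 at 1.23, against a median of 2.41 over all genes compared. All 5 were lower in every aging library than in any control library. Like Stc1, Hmga2, Cfap69, Fam107a and Steap2 had their lowest CPM in aging replicate 2, at 0.173, 0.691, 0.115 and 1.09. Dbp was lowest in aging replicate 5, at 2.27 CPM. In FPKM the same held for Hmga2, Fam107a and Steap2. Cfap69 was instead highest of the aging libraries in replicate 2, at 0.39 against 0.33 and 0.32 FPKM. Hmga2 rests on 3, 5 and 6 counts in aging replicates 2, 3 and 5. The 5 genes were picked for likeness over these same 6 libraries, so nothing is read from this order. Their likeness to Stc1 is mostly the difference between the groups, which chose Stc1.

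**Figure D3:**
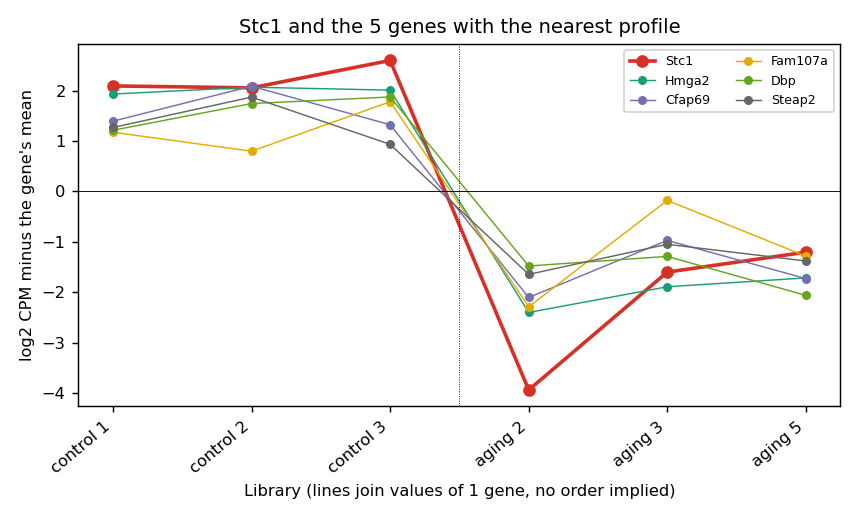
log2 CPM minus the gene's own mean over the 6 libraries for Stc1 (thick red line) and the 5 genes of nearest profile; the dotted line parts the control from the aging libraries. All 6 genes lie above 0 in the control libraries and below 0 in the aging libraries, and Stc1 reaches the lowest point, in aging replicate 2.

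The genes next to the stanniocalcins on the chromosome were looked at for a shared difference, with their order taken from RefSeq on GRCm38.p6. Stc1 lies on chromosome 14 between Adam28 and Nkx2-6. Adam28, a membrane metalloprotease, had 3 counts over the 6 libraries, and the homeobox gene Nkx2-6 had none. Adamdec1, the next gene beyond Adam28 and a secreted protease of macrophages, had a log2 fold change of 0.69 ± 0.34 (SE), in the direction opposite to Stc1, and did not pass (edgeR adjusted p = 0.216). The neighbours of Stc2 on chromosome 11, Asb3, Chac2, Bod1 and Cpeb4, had log2 fold changes of -0.02 to 0.39 and none passed.

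Both stanniocalcins act on PAPP-A, and its transcripts were rare in these cells. Pappa had 11, 2 and 2 counts in control replicates 1, 2 and 3 and 3, 7 and 1 counts in aging replicates 2, 3 and 5, with groups that overlapped. Pappa2, the related protease, had no count in any library, and Prg2, which encodes another inhibitor of PAPP-A, had 40 counts in all. The substrates were present: Igfbp4, the binding protein that PAPP-A cleaves best, stood at 991 ± 18.6 CPM in the control libraries against 883 ± 41.8 CPM in the aging libraries (SD, n = 3 per group). Its log2 fold change of -0.17 ± 0.08 (SE) did not pass. Igfbp5 stood at 35.3 ± 8.16 against 48.0 ± 17.9 CPM and did not pass either. It passed in 1 of 11 alternative fits, that with a term for the replicate number (edgeR adjusted p = 0.0103).

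Of 12 genes of the PAPP-A and insulin-like growth factor axis, 9 could be tested and none passed in edgeR, against 12.8% of all tested genes. With 9 genes tested, nothing is read from this lack of calls. Of the 9, 3 had an unadjusted p under 0.05, and DESeq2 called 1 higher (Insr) and 1 lower (Igfbp3). The share of all tested genes under that unadjusted value was not computed, so nothing is read from the 3. The insulin receptor Insr had a log2 fold change of 0.71 ± 0.21 (SE; edgeR adjusted p = 0.0645), and the binding protein Igfbp3 one of -1.25 ± 0.38 (SE; edgeR adjusted p = 0.0678). The groups did not overlap for 4 of the 9 genes, against 38% of all tested genes. Among these were Insr and Igfbp3, at 243 ± 28.8 against 398 ± 106 CPM for Insr and 2.46 ± 0.709 against 1.03 ± 0.390 CPM for Igfbp3. The median log2 fold change of the list was -0.05, against -0.01 over all tested genes. Without aging replicate 2, 1 member passed, which was Insr.

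Stanniocalcins act on calcium and phosphate handling in fish and mammals, and 3 genes of this list changed. Orai1, the calcium channel that Stim1 opens, rose from 17.6 ± 0.824 to 24.0 ± 0.626 CPM (SD, n = 3 per group), which is 0.45 ± 0.09 on the log2 scale (SE; edgeR adjusted p = 0.0249). Stim1 stood at 93.9 ± 4.76 against 81.8 ± 2.09 CPM and did not pass. Itpr3, a calcium release channel of the endoplasmic reticulum, fell by 0.46 on the log2 scale, and Ucp2, a mitochondrial carrier that Stc1 induces in mouse macrophages, fell from 424 ± 22.6 to 314 ± 30.4 CPM. The calcium-sensing receptor Casr had no count, and the phosphate carriers Slc34a1, Slc34a2 and Slc34a3 had 1, 38 and 0 counts in all. Of the 20 genes listed 16 were tested, of which 1 rose and 2 fell, 18.8% against 12.8% of all tested genes. With 3 calls, 1 of them the mitochondrial carrier Ucp2, nothing is read from this difference in share. None of these 3 calls held without control replicate 1, 2 or 3 nor without aging replicate 3, and Orai1 and Itpr3 were also lost without aging replicate 2 (edgeR adjusted p up to 0.119).

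The called genes of the hypoxia list went in both directions. Egln3, a prolyl hydroxylase induced by hypoxia, fell from 19.7 ± 2.68 to 7.02 ± 1.92 CPM, and Pdk1, which holds pyruvate back from the mitochondria, fell by 0.68 on the log2 scale. The glucose transporter Slc2a1 rose from 20.6 ± 2.88 to 79.2 ± 27.3 CPM and the collagen hydroxylase P4ha1 from 107 ± 19.4 to 241 ± 55.1 CPM (SD, n = 3 per group). Slc2a1 stood at 111, 61.6 and 65.5 CPM in aging replicates 2, 3 and 5, where the neutrophil markers summed to 4218, 1782 and 1534 CPM, and their part in its rise was not tested. The transcription factors themselves, Hif1a and Epas1, did not pass, at 0.17 ± 0.15 and -0.17 ± 0.09 on the log2 scale (SE). Of 19 genes listed 18 were tested, of which 2 rose and 2 fell, 22.2% against 12.8% of all tested genes, with a median log2 fold change of -0.16. With only 4 genes called, nothing is read from this difference in share. These 4 genes had an edgeR adjusted p of 0.00897 to 0.0289. Slc2a1 was lost without control replicate 2, P4ha1 without control replicate 1 or 2, and Pdk1 without control replicate 2, control replicate 3, aging replicate 2 or aging replicate 3 (edgeR adjusted p up to 0.0987). Egln3 passed in all 11 alternatives.

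The list of the unfolded protein and ATF4 response covers more than the ATF4 arm, the part known to raise Stc2. In it 5 of 14 tested genes rose, 35.7% against 7.22% of all tested genes in that direction. Ddit3, the stress transcription factor CHOP, had 10.3, 10.2 and 9.95 CPM in control replicates 1, 2 and 3 and 25.8, 30.9 and 24.9 CPM in aging replicates 2, 3 and 5. It rose by 1.43 ± 0.12 on the log2 scale (SE; edgeR adjusted p = 0.00229). Chac1, an enzyme that degrades glutathione, rose by 1.67 ± 0.28 on the same scale (SE), and the transcription factor Xbp1, the chaperone Hspa5 and the stress protein Sesn2 by 1.10 ± 0.16, 1.09 ± 0.19 and 0.94 ± 0.14 (SE). The other 9 genes did not pass, among them Atf4 itself, at 178 ± 19.4 against 167 ± 22.0 CPM. Trib3, Asns and Psat1, also among the 9, had log2 fold changes of -0.22, 0.64 and -0.06. Stc2 had 9 to 10 counts in the aging libraries against 4 to 8 in the control libraries. The counting interval of its ratio, 0.853 to 3.14, includes 1, and a link to these genes was not tested. The median log2 fold change of the list was 0.07, and DESeq2 called 5 of its genes higher and 1 lower. In edgeR the number that rose was 1 without control replicate 2, which was Ddit3, and 3 without control replicate 3.

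Genes of VEGF signalling, an inducer of Stc1 in human endothelium, did not pass. Of 9 genes 8 were tested and none changed in edgeR, against 12.8% of all tested genes, and DESeq2 called 0. With 8 genes tested, nothing is read from this lack of calls. An unadjusted p under 0.05 was found for 2 of the 8, and the share of all tested genes under that value was not computed. Vegfa stood at 51.1 ± 6.34 against 42.3 ± 1.42 CPM and Vegfc, the lymphatic growth factor, at 18.5 ± 2.16 against 12.1 ± 4.15 CPM (SD, n = 3 per group). Their log2 fold changes were -0.27 ± 0.11 and -0.62 ± 0.24 (SE), and the median of the list was -0.17. The placental growth factor gene Pgf had 3 counts in all. Without aging replicate 5 Vegfc passed as lower.

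**Figure D4:**
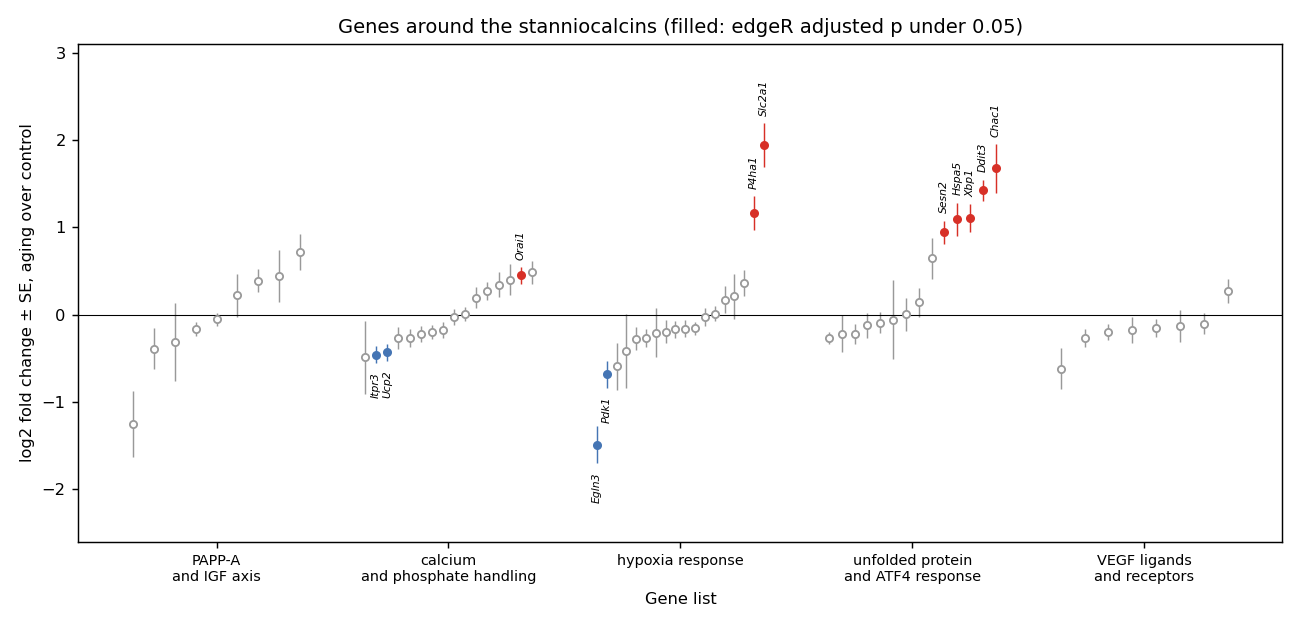
log2 fold change ± SE of aging over control for each tested gene of the 5 lists, sorted within a list; filled points passed the edgeR test and are named, red for higher and blue for lower. The stress list holds 5 risen genes, the hypoxia list 2 risen and 2 fallen ones, and the PAPP-A and VEGF lists hold none. Of all tested genes 12.8% passed.

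Stc1 is known from stromal as well as endothelial cells, and the libraries differed in transcripts of other cell types. In bulk RNA, fewer cells of a type and less RNA per cell cannot be told apart. The summed stellate cell and fibroblast markers ranged from 47.3 to 57.9 CPM in the control libraries and from 25.2 to 31.1 CPM in the aging libraries, with 3 of 8 genes lower (Reln, Lrat and Dcn), where 5.59% of all tested genes were lower and 7.22% higher. Col1a1, Col1a2, Col3a1, Pdgfrb and Des were not called, with log2 fold changes of 0.18, -0.16, -0.61, -0.63 and -0.12. Dcn stood at 18.8 ± 2.46 against 10.9 ± 1.23 CPM and Reln at 13.7 ± 2.12 against 3.92 ± 0.654 CPM (SD, n = 3 per group). Both are part of the sums, so the lower sums are not separate from the calls. None of the 8 was without counts, and Pdgfrb and Des stayed under 1 CPM on average in both groups. The summed neutrophil markers ranged from 215 to 471 CPM in the control libraries and from 1534 to 4218 CPM in the aging libraries, with 6 of 9 genes higher and the highest sum in aging replicate 2, the library with 1 count of Stc1. Their part in the difference of Stc1 was not tested.

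The 6 general endothelial markers summed to 8730 to 10228 CPM in the control libraries and to 8259 to 8563 CPM in the aging libraries, and none of them passed in edgeR or DESeq2 (0 with an unadjusted p under 0.05). Of the 8 sinusoidal markers none passed in edgeR or DESeq2, and 4 had an unadjusted p under 0.05. The share of all tested genes under that unadjusted value was not computed, so nothing is read from such counts in any marker list. Of all tested genes 5.59% were lower and 7.22% higher in edgeR. The hepatocyte markers summed to 671 to 800 CPM against 603 to 712 CPM, with 4 of 8 lower (Fabp1, Pck1, Tat and Cps1). Alb, Apoa1, Ttr and Serpina1a were not called. The T and NK cell markers summed to 19.9 to 56.9 against 16.7 to 35.0 CPM, with 1 of 6 higher in edgeR (Cd8a). In that list DESeq2 called 1 higher and 1 lower. The B and plasma cell markers summed to 26.6 to 67.5 against 55.4 to 235 CPM, with 2 of 6 higher (Jchain and Igkc). Macrophage markers (1062 to 1649 against 700 to 1797 CPM), cholangiocyte markers (25.1 to 41.9 against 20.7 to 27.4 CPM) and erythroid markers (66.9 to 141 against 40.6 to 95.8 CPM) overlapped between the groups, with none called in edgeR. Unadjusted p-values under 0.05 numbered 1, 0 and 1 in those lists, and DESeq2 called 1 macrophage marker and 0 of the others.

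**Figure D5:**
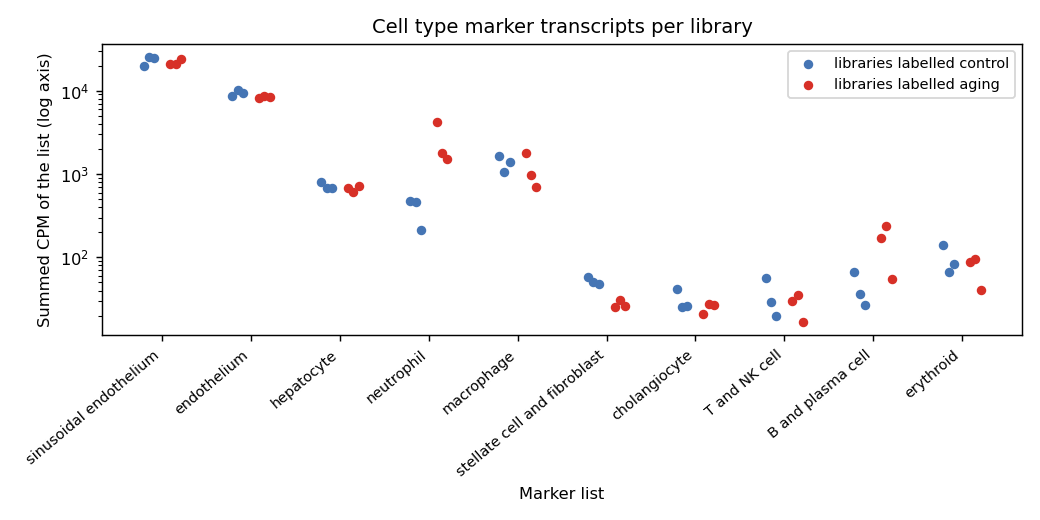
Summed CPM of each cell type marker list in every library on a log axis, control libraries in blue and aging libraries in red. The neutrophil sums are higher and the stellate cell and fibroblast sums lower in all 3 aging libraries, and the general endothelial sums are lower there too, at 8259 to 8563 against 8730 to 10228 CPM. Of the 8 stellate cell and fibroblast genes 3 were called lower and 5 were not called.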

How the data were processed

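RNA of 6 libraries was sequenced after poly(A) selection, per the labels' protocols. The submitters' processing notes name the tools RSEM, HISAT2, Bowtie2, StringTie 1.3.1 and fastp 0.18.0 without their roles; no source used here gives the build, annotation or strand setting. The deposited counts are whole numbers per gene, and whether estimated counts were rounded is not stated. FPKM is a deposited column of the authors for each library. Each group value is a score that the authors deposited. The authors also deposited a p-value, an FDR and a log2 fold change per gene, of which only the last is printed, for the 2 members.

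The test was that of edgeR 4.0.16 (R 4.3.3): filterByExpr (minimum count 10, minimum total 15), TMM scaling, a robust quasi-likelihood fit with group as the only term, and Benjamini-Hochberg adjustment over 13096 genes at 0.05. Standard errors are those implied by the F statistic and the log2 fold change. CPM use TMM-scaled library sizes. A simulation of the comparison on 12992 genes recovered 66% of genes changed 2-fold and 92% of those changed 4-fold, with 13 false calls. Its changed genes were drawn only from those above a minimum mean count, so the recovery does not cover genes of few counts such as Stc2. Libraries of a group gave a chi-square of 8.07 to 51.9 per degree of freedom, above sampling noise. None was therefore counted as a repeat sequencing of another. This cannot tell whether libraries share a mouse or a pool of cells. Alternatives were RLE and upper-quartile scaling, DESeq2 1.42.0, no filter, a replicate block, and leaving out each library. Stc2, which the filter removes, was fitted without it, a choice made after seeing the data.

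The members and lists were chosen with earlier results of these data known. From each list up to 6 genes past the threshold were named, or, where none passed, the 2 with the smallest p, besides 10 genes fixed by role, the 5 nearest profiles and 2 neighbours on each side, of which 1 is not reported here; genes near 0 counts and single markers were named after their values were seen. Sequences come from RefSeq promoters of GRCm38.p6, which hold an entry for Stc2, and not for Stc1.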

Additional observations from a re-analysis of the deposited data

How the results depend on the processing

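Stc1 was lower in the libraries labelled aging in all 11 alternatives, with a log2 fold change of -4.34 with RLE scaling, -4.39 with upper-quartile scaling, -4.36 with DESeq2 and -4.34 with no filter, and of -4.94 to -3.81 when any single library was left out. The log2 fold change of Stc2 was 0.52 to 1.01 when a library was left out, with the highest value without control replicate 1. The difference of log2 FPKM depends on the pseudocount, as Stc1 gave -3.85 with 0.1, -4.96 with 0.01 and -1.83 with 1 FPKM. For Stc2 these were 0.36, 0.67 and 0.07. With CPM in place of FPKM they were -4.56 for Stc1 and 0.59 for Stc2. The count of changed genes, 1678, was 268 to 2121 when a library was left out: 664, 268 and 458 without control replicate 1, 2 and 3, and 860 without aging replicate 3. The groups share only the replicate numbers 2 and 3, and same-numbered libraries did not deviate together (r across genes -0.06 and -0.04). With the replicate block Stc1 had a log2 fold change of -5.10 and Stc2 one of 1.03, and 1698 genes were called, 1068 of them shared with the fit without it. The block ended the calls of Orai1, Itpr3 and Ucp2, and under it Igfbp5 (0.73) and Vegfc (-0.85) passed, with edgeR adjusted p of 0.0103 and 0.0198; over their alternatives these ranged to 0.763 and 0.279. Of 17 named genes that passed, 6 passed in every alternative and 11 were lost in at least 1; of 15 that did not, 5 passed in at least 1, and none reversed. The cause was not tested. Depth limits Stc2 and the aging values of Stc1, which rest on 1 to 18 counts a library.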

Other observations

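In the annotation of the deposited table Stc1 and Stc2 carry 29 and 27 gene ontology terms, of which 10 are shared; these counts were made after the data had been seen, and both members are left out of them. Of 19 tested genes of the term hormone activity 2 passed in edgeR, 10.5% against 12.8% of all tested genes. These were the activin subunit Inhba and the myeloid secreted protein Retnlg, both higher in the libraries labelled aging. Retnlg is also in the neutrophil marker list. Of 31 tested genes of cellular calcium ion homeostasis 2 passed, 6.45%, which were the Golgi calcium pump Atp2c1 and the exchanger Slc24a1. The term cellular response to hypoxia had 38 tested genes, of which 2 rose and 5 fell, 18.4%. Fabp1 and Pck1, hepatocyte markers that were lower in the libraries labelled aging, are among the 5. Of the 8 hepatocyte markers 4 were lower and 4 were not called. The latter, Alb, Apoa1, Ttr and Serpina1a, had log2 fold changes of 0.03, 0.12, -0.004 and -0.33.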
